A study of Mus musculus with 8 samples.

Results

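The genes described here are the mouse semaphorins, plexins and neuropilins, chosen by gene symbol: all protein-coding genes named Sema with a class number from 3 to 7 and a letter, Plxn with a subfamily letter and, where there is one, a number, and Nrp1 and Nrp2. The rule found 31 genes (20 semaphorins, 9 plexins and 2 neuropilins) among the 55573 Ensembl gene IDs of each count table. It used no measured value. RNA was sequenced from cells that had been dissociated from the cerebral cortex and sorted for the red fluorescent protein tdTomato. Every animal, controls included, was on the C57BL/6 background and carried the Cre recombinase driver PV-Cre, meant for parvalbumin cells, together with the tdTomato reporter. KO mice also carried Dnmt1 loxP2, an allele from a B6;129Sv stock whose exons 4 and 5 are removed by Cre, and WT mice carried wild-type Dnmt1. Dnmt1 encodes the enzyme that copies cytosine methylation onto newly made DNA. The 4 groups were KO and WT at 6 months and KO and WT at 18 months, each with 2 libraries that the design text calls technical replicates. Cells were pooled from 6 KO and 6 WT mice, and whether those mice served 1 age or both is not stated in the design text. The p-values below therefore measure only how libraries of a group spread, which may be technical, and do not cover differences between animals.

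Semaphorins are secreted or membrane-bound guidance proteins, first known for repelling or attracting growing axons. Plexins are their receptors, and neuropilins are co-receptors with which secreted class 3 semaphorins bind plexin-A proteins. Class 4 semaphorins act mainly through plexin-B proteins, class 6 through plexin-A proteins, and Sema7a through plexin-C1 and integrins. In the adult cortex the family is known for work on synapses, on oligodendrocytes and on the perineuronal nets that surround parvalbumin interneurons, where Sema3A protein accumulates.

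Libraries held 6008175 to 13551218 counts. Across the 18205 genes tested, log2 levels correlated between libraries of 1 group with r of 0.972 to 0.99. The WT 6-month libraries stood apart: r was 0.892 to 0.946 between them and the other groups, against 0.954 to 0.975 among the other 3 groups. Every contrast of KO with WT at 6 months, of 18 with 6 months in WT, and of genotype with age uses those libraries. Dnmt1 averaged 76.2 CPM, a count scaled to the library's depth, in KO and 101 CPM in WT at 6 months (log2 fold change -0.40, adjusted p = 0.0001). The 18-month means were 75.4 CPM in KO and 80.9 CPM in WT (log2 fold change -0.10, adjusted p = 0.281). Exons outside the deleted pair still count toward these values. The marker that defines the labelled cell type was nearly absent: Pvalb, encoding parvalbumin, had 6 reads over all 8 libraries.

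All 31 genes passed the filter on low counts, and their levels spread over more than 3 orders of magnitude. Levels of different genes are compared per kilobase of exon (RPKM), averaged over the 4 groups. Plxnb3, a plexin known as a receptor for Sema5A, was highest at 93.9 RPKM. Sema6d, a transmembrane ligand of plexin-A1, followed at 54.1 RPKM, and Plxnb1, the receptor for Sema4D, at 45.4 RPKM. These 3 genes held 50.8% of the summed RPKM of the family. With Sema4d (30.2 RPKM), Sema6a (28.3 RPKM) and Sema7a (26.5 RPKM) the share came to 73.2%. At the low end, 5 genes were under 1 RPKM, and all of them were semaphorins: Sema3b (0.932 RPKM), Sema4f (0.840 RPKM), Sema3g (0.511 RPKM), Sema3f (0.396 RPKM) and Sema3a (0.0706 RPKM, 64 reads over all libraries). Of the 7 secreted class 3 ligands, Sema3d was the highest at 2.98 RPKM. Their neuropilin co-receptors were close to that level, with Nrp2 at 2.82 RPKM and Nrp1 at 2.34 RPKM.

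**Figure D1:**
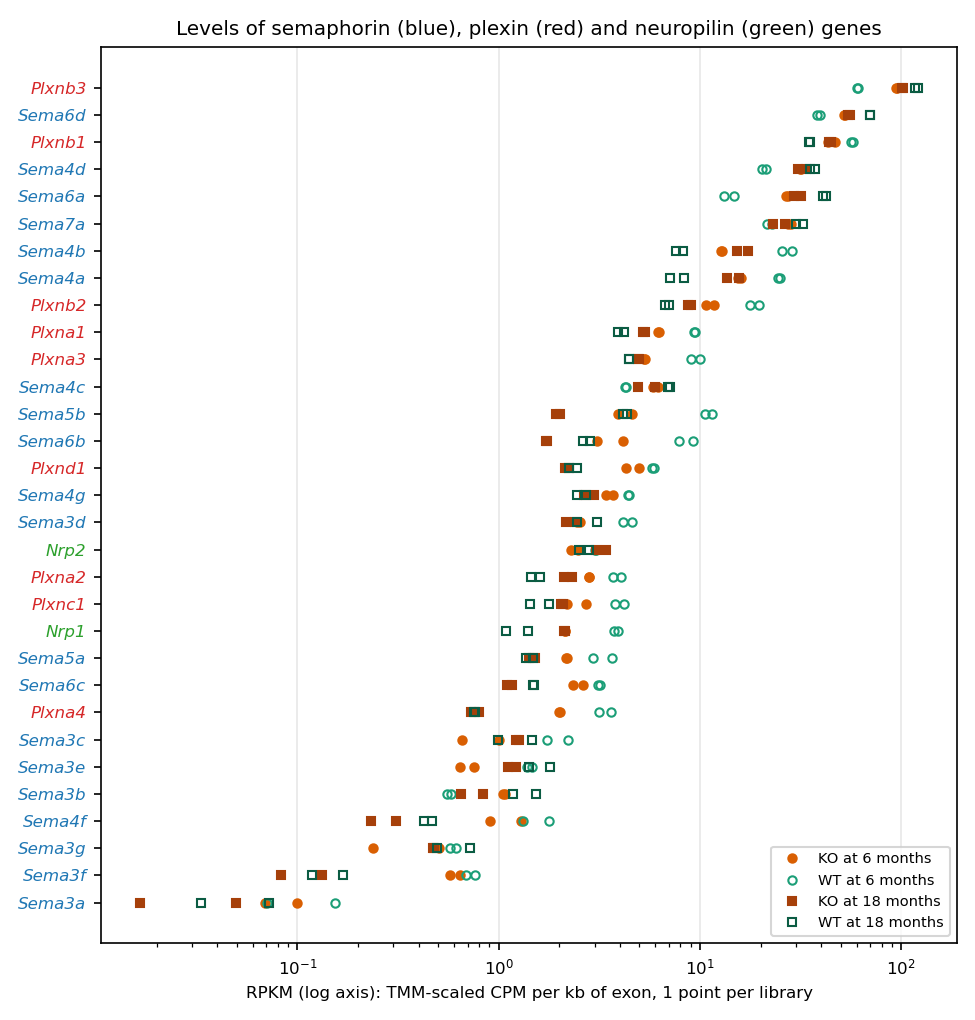
RPKM (log axis) of each of the 31 genes in each library, ordered by the mean over the 4 groups. Filled marks are KO and open marks WT libraries, circles 6 months and squares 18 months; Plxnb3 is at the top (93.9 RPKM) and Sema3a at the bottom (0.0706 RPKM).

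Sorted by which group had the highest and which the lowest mean, the genes fell into a few patterns. For 7 genes (Plxnb3, Sema3b, Sema4c, Sema4d, Sema6a, Sema6d and Sema7a) WT cells at 18 months were highest and WT cells at 6 months lowest, with both KO groups between. For 12 genes (Nrp1, Plxna1, Plxna2, Plxna3, Plxna4, Plxnb1, Plxnb2, Plxnc1, Sema4a, Sema4b, Sema4g and Sema5a) the order was turned round, with WT at 6 months highest and WT at 18 months lowest. For 8 genes (Plxnd1, Sema3a, Sema3d, Sema3f, Sema4f, Sema5b, Sema6b and Sema6c) WT at 6 months was highest and KO at 18 months lowest. Sema3e and Sema3g were highest in WT at 18 months and lowest in KO at 6 months, Sema3c was highest in WT and lowest in KO at 6 months, and Nrp2 was highest in KO at 18 months and lowest in KO at 6 months. These patterns are a description of the group means, with no test. For Plxna4, Sema4g, Sema5a, Plxnd1, Sema3a and Sema3f the KO and WT libraries overlapped at 18 months. Which of those groups was lowest is therefore uncertain for these genes, and so is the pattern they fell into. By this sorting 19 of the 31 genes had both extremes in WT cells at the 2 ages, which by definition puts the KO means between the WT means.

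**Figure D2:**
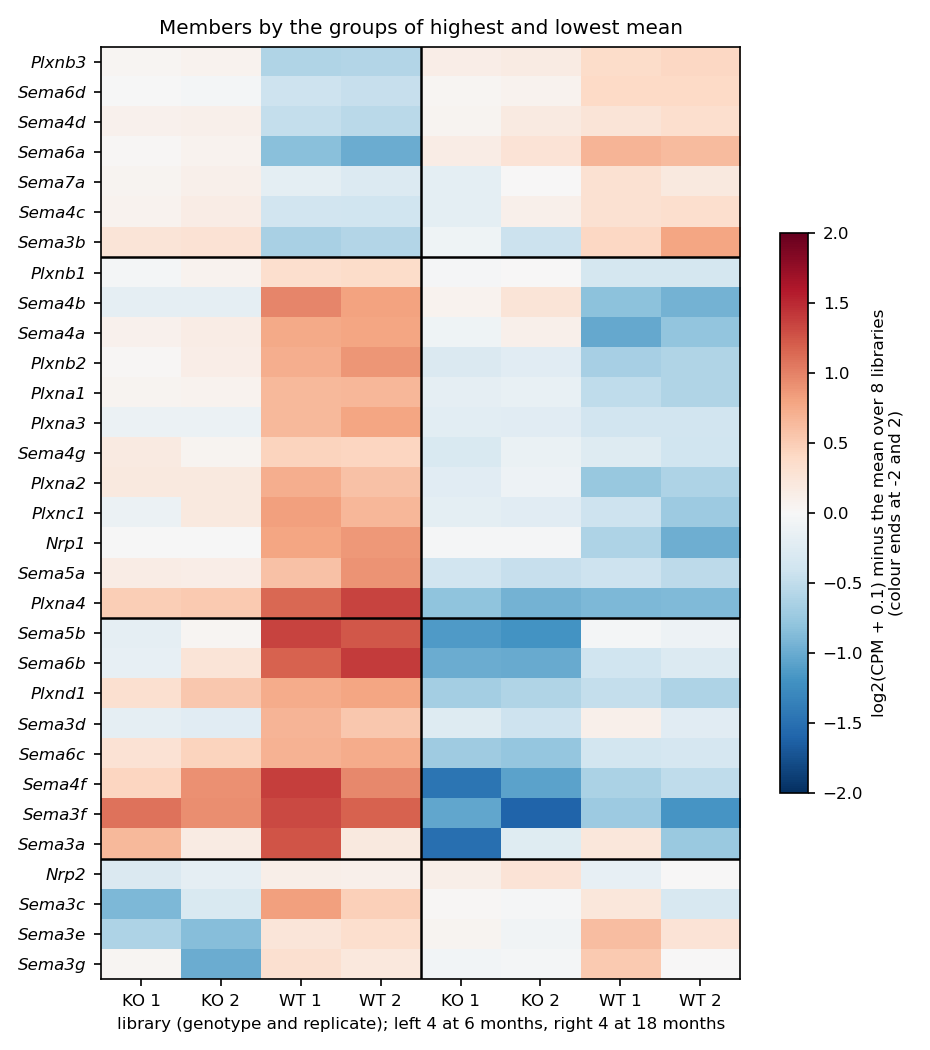
Colour gives log2(CPM + 0.1) of each gene in each library, minus the mean over the 8 libraries, with colours ending at -2 and 2. Rows are grouped by the groups with the highest and lowest mean; the top 7 genes are low in WT at 6 months and high in WT at 18 months, and the next 12 are the other way round.

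Cytosine methylation in mammals sits mainly at CpG dinucleotides, so the CpG content of the genes' start regions is shown for 3 genes. RefSeq windows of 300 bases, lying mostly before the transcript start (GRCm38.p6), were found for 26 of the 31 genes, as 37 windows, several genes having more than 1 start. Plxna1, Plxna4, Sema3b, Sema3f and Sema6a were not matched. The median CpG count was 15 per window for these genes (quartiles 6 and 27) and 7 over all 32851 windows of 27025 genes (quartiles 3 and 20). Plxnb3, the highest of the family, has 4 CpGs in its window at chrX:73756853-73757152 on the plus strand. Sema4b, whose genotype difference changed most with age, has 26 CpGs in the first of its 2 windows, at chr7:80186620-80186919 on the plus strand. Sema7a, which moved in the same directions as Plxnb3, has 23 CpGs at chr9:57939862-57940161 on the plus strand. The sequences are printed with each CpG in capitals.
Plxnb3: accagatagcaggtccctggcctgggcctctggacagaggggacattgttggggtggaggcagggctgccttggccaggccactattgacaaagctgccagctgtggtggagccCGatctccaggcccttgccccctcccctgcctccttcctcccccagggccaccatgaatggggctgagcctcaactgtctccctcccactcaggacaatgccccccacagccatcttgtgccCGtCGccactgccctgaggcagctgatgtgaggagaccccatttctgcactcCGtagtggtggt
Sema4b: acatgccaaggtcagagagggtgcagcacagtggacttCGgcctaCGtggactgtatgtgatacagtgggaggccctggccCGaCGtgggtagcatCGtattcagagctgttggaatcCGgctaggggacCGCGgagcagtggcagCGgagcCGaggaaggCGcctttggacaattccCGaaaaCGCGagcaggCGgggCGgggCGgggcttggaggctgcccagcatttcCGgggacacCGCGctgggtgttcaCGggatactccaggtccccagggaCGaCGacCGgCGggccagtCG
Sema7a: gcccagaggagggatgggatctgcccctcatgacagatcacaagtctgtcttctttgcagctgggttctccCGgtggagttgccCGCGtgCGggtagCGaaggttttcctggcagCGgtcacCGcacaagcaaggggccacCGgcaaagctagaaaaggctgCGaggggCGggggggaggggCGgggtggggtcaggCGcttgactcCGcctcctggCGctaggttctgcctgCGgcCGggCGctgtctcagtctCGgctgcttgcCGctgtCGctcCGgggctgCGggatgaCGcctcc
Plxnb3 and Sema7a shared their highest and lowest groups and had 4 and 23 CpGs in these windows. A link between CpG count and level was not tested. The letters ACAAAG or ACAATG, cores bound by SOX proteins, occurred on either strand in 11 of the 37 windows (29.7%), close to the 28.6% of all windows of that length. A match or its absence in this window says nothing of binding.

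Marker genes of several brain cell types moved between the groups, and some of their sums had the same highest and lowest group as sets of family members. Over 16 oligodendrocyte markers, summed CPM was 32060 to 32950 in KO and 14750 to 14780 in WT at 6 months. At 18 months the sum was 29420 to 29880 in KO and 43220 to 43270 in WT. Each of these 16 markers was higher in KO at 6 months and lower in KO at 18 months. The sum was highest in WT at 18 months and lowest in WT at 6 months, as were the 7 genes led by Plxnb3. The 16 parvalbumin interneuron markers had these extremes too, within a narrow range: 477 to 478 CPM in KO and 445 to 484 CPM in WT at 6 months, and 488 to 498 CPM in KO and 503 to 530.5 CPM in WT at 18 months. Most of its single markers ran against that sum: of 13 tested, 2 were higher and 8 lower at 18 than at 6 months in WT (median log2 fold change -0.80).

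Over 16 astrocyte markers the sum was 8852 to 8919 CPM in KO and 15280 to 15290 CPM in WT at 6 months, and 10840 to 10930 CPM in KO and 5029 to 5111 CPM in WT at 18 months. All 16 were lower in KO at 6 months and higher in KO at 18 months, and the extremes were those of the 12 genes listed with Nrp1. Sums of 11 GABA neuron markers shared these extremes, at 869 to 881 CPM in KO and 1334 to 1372 CPM in WT at 6 months, and 960.2 to 990.0 CPM in KO and 746 to 790.4 CPM in WT at 18 months. At 18 months 1 of 9 tested GABA markers was higher in KO and 3 were lower (median -0.43), against the direction of the sum. The extremes were also those of the sum of 15 excitatory neuron markers, at 438 to 449 CPM in KO and 542 to 543 CPM in WT at 6 months, and 292 to 304 CPM in KO and 227 to 229 CPM in WT at 18 months. Of 14 tested excitatory markers, 3 were higher and 5 lower in KO at 18 months (median -0.68), again against the sum. The 12 endothelial markers, with the same extremes, summed to 286 to 293 CPM in KO and 324.9 to 325.2 CPM in WT at 6 months, and to 279 to 280.4 CPM in KO and 257 to 265 CPM in WT at 18 months.

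Precursor markers of the oligodendrocyte lineage (12 genes) summed to 2035 to 2144 CPM in KO and 3928 to 3940 CPM in WT at 6 months, and to 1421 to 1504 CPM in KO and 2337 to 2411 CPM in WT at 18 months. Their extremes were those of the 8 genes listed with Plxnd1. Pan-neuronal markers (10 genes) shared them, at 518 to 550.0 CPM in KO and 862 to 902 CPM in WT at 6 months, and 363 to 374 CPM in KO and 372 to 377 CPM in WT at 18 months. Fibroblast and meningeal markers (9 genes) did as well, at 388 to 391 CPM in KO and 872 to 877 CPM in WT at 6 months, and 297 to 302 CPM in KO and 418 to 437 CPM in WT at 18 months, although 3 of 8 tested were higher and 2 lower in KO at that age (median 0.068). No family member had the extremes of the microglial markers (14 genes), which summed to 185 to 187 CPM in KO and 138 to 148 CPM in WT at 6 months, and to 81.6 to 83.4 CPM in KO and 188 to 199 CPM in WT at 18 months. The same was true of 12 pericyte and smooth muscle markers, at 2875 to 2975 CPM in KO and 2757 to 2803 CPM in WT at 6 months, and 2043 to 2077 CPM in KO and 1218 to 1255 CPM in WT at 18 months. Of all these markers, Dlx6os1 of the GABA list was the only 1 at 0 in every library. Some lists share a gene, so their sums are not independent. Pdgfra is on both the precursor and the fibroblast list. Cspg4 is on the precursor and pericyte lists, and Lhx6 on the GABA and parvalbumin lists. The part of these cell types in the results below was not tested. In such bulk libraries fewer cells of a type and less RNA per cell cannot be told apart.

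**Figure D3:**
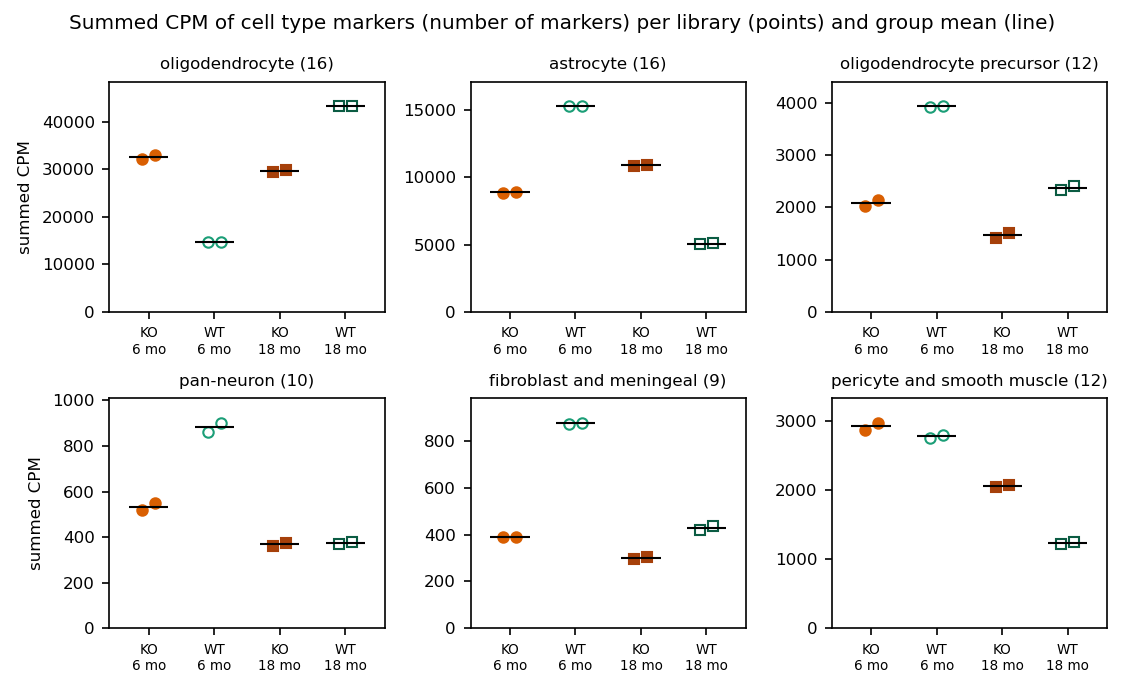
Summed CPM of 6 lists of cell type markers in each library (points) with the group mean (line), KO left of WT at each age; the number of markers is in the panel title. Oligodendrocyte sums are lowest and astrocyte sums highest in WT at 6 months.

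At 6 months most of the family was lower in KO than in WT cells. Of the 31 genes, 19 were lower, 7 were higher and 5 did not pass an adjusted p of 0.05 (edgeR quasi-likelihood test, adjusted over all genes tested). Over all genes tested, 19.6% were lower and 19.2% higher. The median log2 fold change was -0.50 for the family and -0.0048 for all genes. Receptors leaned most: 8 of 9 plexins and both neuropilins were lower, and Plxnb3 alone was higher. Semaphorins were mixed, with 9 lower and 6 higher of 20. At 18 months the family split, with 8 genes higher in KO, 10 lower and 13 not called. Over all genes tested, 14.7% were higher and 17.4% lower at that age. The receptors' balance differed from that at 6 months: 5 plexins and Nrp1 were higher in KO and Plxnb3 was lower. Among semaphorins 9 were lower and 2, Sema4a and Sema4b, were higher. The count of lower genes at 18 months rests on the scaling and on single libraries. With library totals in place of TMM factors, which moved the median of all genes by 0.14 on the log2 scale, the split was 10 higher and 5 lower. Without KO 18-month library 1, or without WT 18-month library 2, 6 genes were lower.

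The secreted class 3 semaphorins were low, and 3 of the 7, Sema3c, Sema3d and Sema3e, were lower in KO at 6 months. Sema3c, a ligand of both neuropilins, had 4.70 and 7.16 CPM in KO libraries, against 15.8 and 12.4 CPM in WT libraries at 6 months. It fell in KO by 1.25 on the log2 scale (SE 0.23, adjusted p = 0.000108). At 18 months the groups overlapped, with 9.01 and 8.71 CPM in KO libraries, against 10.4 and 7.08 CPM in WT libraries. Sema3d, a ligand of Nrp1, had 21.8 and 21.1 CPM in KO libraries, against 39.5 and 35.7 CPM in WT libraries at 6 months, a log2 fold change of -0.81. The 18-month values were 20.7 and 18.5 CPM in KO libraries, against 26.5 and 21.01 CPM in WT libraries, and the difference was not called (adjusted p = 0.128). Sema3e, which binds Plxnd1 without a neuropilin, had 6.99 and 5.97 CPM in KO libraries, against 12.8 and 13.6 CPM in WT libraries at 6 months. It was lower in KO at both ages, by 2.04-fold at 6 months and 1.35-fold at 18 months, where the values were 11.3 and 10.4 CPM in KO libraries, against 16.7 and 13.2 CPM in WT libraries. The 18-month call for Sema3e was lost in 6 of 15 alternatives, among them library totals. Its receptor Plxnd1 was also lower in KO at 6 months (31.2 and 36.3 CPM in KO libraries, against 42.0 and 43.1 CPM in WT libraries), a call lost in 5 of 15 alternatives. At 18 months the Plxnd1 groups overlapped, at 15.6 and 16.4 CPM in KO libraries, against 17.9 and 16.2 CPM in WT libraries.

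Sema3b ran against Sema3c, Sema3d and Sema3e at 6 months. It had 5.04 and 5.13 CPM in KO libraries, against 2.63 and 2.76 CPM in WT libraries at 6 months, 1.88-fold higher in KO (adjusted p = 0.02). Later, at 18 months, it had 3.97 and 3.11 CPM in KO libraries, against 5.64 and 7.31 CPM in WT libraries and was 1.85-fold lower (adjusted p = 0.00436). Sema3b held 348 reads over all libraries, and each of the calls was lost when some single libraries were left out or with DESeq2. Sema3a, Sema3f and Sema3g, with 64, 129 and 170 reads, were not called between genotypes at either age. For Sema3a, the ligand of Nrp1 that is known from perineuronal nets, the values were 1.37 and 0.955 CPM in KO libraries, against 2.14 and 0.975 CPM in WT libraries at 6 months, and 0.229 and 0.690 CPM in KO libraries, against 1.00 and 0.462 CPM in WT libraries at 18 months. The Sema3a groups overlapped at both ages, so no difference could be detected at this depth. Sema3f, the ligand of Nrp2, had 3.32 and 2.99 CPM in KO libraries, against 3.95 and 3.57 CPM in WT libraries at 6 months, and 0.687 and 0.431 CPM in KO libraries, against 0.878 and 0.616 CPM in WT libraries at 18 months. Sema3g had 2.29 and 1.08 CPM in KO libraries, against 2.80 and 2.60 CPM in WT libraries at 6 months, and 2.14 and 2.16 CPM in KO libraries, against 3.26 and 2.23 CPM in WT libraries at 18 months.

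Class 4 semaphorins, membrane-bound ligands mainly of plexin-B proteins, moved in both directions. Sema4b, known from synapse formation, had 72.0 and 72.7 CPM in KO libraries, against 162 and 144 CPM in WT libraries at 6 months. At 18 months the order was turned round, with 86.4 and 97.7 CPM in KO libraries, against 46.3 and 42.7 CPM in WT libraries. It was thus 2.11-fold lower in KO at 6 months (log2 -1.08 ± 0.080 SE, adjusted p = 1.01e-10) and 2.08-fold higher at 18 months (log2 1.05 ± 0.082 SE, adjusted p = 6.05e-10). Sema4a, known from immune cells and the retina, did the same. Its values were 83.3 and 86.7 CPM in KO libraries, against 132 and 135 CPM in WT libraries at 6 months, and 73.8 and 84.2 CPM in KO libraries, against 38.4 and 45.2 CPM in WT libraries at 18 months. The KO libraries were 1.57-fold lower at the younger age and 1.87-fold higher at the older age (adjusted p = 6.38e-07 and 1.45e-08).

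Sema4d, which signals through Plxnb1 and is known from oligodendrocytes, moved the other way. It had 242 and 243 CPM in KO libraries, against 163 and 157 CPM in WT libraries at 6 months, 1.52-fold higher in KO (adjusted p = 4.01e-08). At 18 months it had 237 and 259 CPM in KO libraries, against 271 and 287 CPM in WT libraries and was 1.13-fold lower (adjusted p = 0.0271), a call lost in 7 of 15 alternatives. Sema4c, a ligand of Plxnb2, had 26.9 and 28.4 CPM in KO libraries, against 19.8 and 19.5 CPM in WT libraries at 6 months, and 22.5 and 27.4 CPM in KO libraries, against 31.9 and 32.6 CPM in WT libraries at 18 months. It rose 1.41-fold in KO at 6 months and was 1.29-fold lower at 18 months, a call lost in 4 of 15 alternatives. A non-coding gene on the opposite strand, D430040D24Rik, covers 7.27% of the exon bases of Sema4c, so its values are uncertain as the strand setting of the counting is unknown. Sema4g, which acts with Sema4c through Plxnb2 in the developing cerebellum, was lower in KO at 6 months (32.0 and 29.5 CPM in KO libraries, against 38.4 and 38.0 CPM in WT libraries, 1.24-fold, adjusted p = 0.0326). That call was lost in 9 of 15 alternatives, and at 18 months the Sema4g groups overlapped. Sema4f, at 4.81 and 6.81 CPM in KO libraries, against 9.38 and 6.99 CPM in WT libraries at 6 months, and 1.22 and 1.64 CPM in KO libraries, against 2.26 and 2.46 CPM in WT libraries at 18 months, was not called at either age.

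Sema5b showed the largest fall of the family in KO at either age. This class 5 semaphorin, a transmembrane protein with thrombospondin repeats that repels retinal neurites through plexin-A1 and plexin-A3, had 27.7 and 32.5 CPM in KO libraries, against 80.8 and 74.6 CPM in WT libraries at 6 months. The 18-month values were 14.4 and 13.7 CPM in KO libraries, against 30.7 and 29.3 CPM in WT libraries. KO libraries were 2.58-fold lower at 6 months (log2 -1.37 ± 0.10 SE, adjusted p = 1.18e-10) and 2.13-fold lower at 18 months (log2 -1.09 ± 0.12 SE, adjusted p = 7.12e-08). Sema5a, the ligand known for Plxnb3, was lower in KO at 6 months, with 40.7 and 40.2 CPM in KO libraries, against 54.8 and 68.6 CPM in WT libraries. At 18 months its groups overlapped at 28.2 and 26.5 CPM in KO libraries, against 27.6 and 25.6 CPM in WT libraries. Among class 6, Sema6b, a ligand of Plxna4, was lower in KO at both ages like Sema5b. Its values were 12.3 and 16.4 CPM in KO libraries, against 31.1 and 36.6 CPM in WT libraries at 6 months, a 2.37-fold difference, and 6.87 and 6.82 CPM in KO libraries, against 10.4 and 11.3 CPM in WT libraries at 18 months, a 1.6-fold difference (adjusted p = 0.00412). Without WT 18-month library 2 the later call for Sema6b was lost (adjusted p = 0.0788). The precursor and fibroblast marker sums given above, whose lists share Pdgfra, were also lower in KO at both ages. Of 8 tested fibroblast markers, 3 were higher and 2 lower in KO at 18 months. The pan-neuronal sum was lower in KO at 6 months. Its libraries overlapped at 18 months, at 363 to 374 CPM in KO and 372 to 377 CPM in WT. Of 10 tested pan-neuronal markers, 1 was higher and 7 lower in KO at that age. The order of the 4 group means for the pan-neuronal sum was that of Sema5b and Sema6b. The part of these cell types in the falls was not tested.

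Sema6a and Sema6d, ligands of plexin-A proteins, were among the genes higher in KO at 6 months and lower at 18 months. Sema6a, known to act on oligodendrocyte maturation, had 234 and 241 CPM in KO libraries, against 129.7 and 116 CPM in WT libraries at 6 months. KO was 1.94-fold higher (log2 0.95 ± 0.068 SE, adjusted p = 5.21e-11). At 18 months Sema6a had 256 and 280.1 CPM in KO libraries, against 369 and 359 CPM in WT libraries, and KO was 1.36-fold lower (adjusted p = 4.35e-06). Sema6d had 557 and 547 CPM in KO libraries, against 419 and 405 CPM in WT libraries at 6 months, and 575 and 589.7 CPM in KO libraries, against 736 and 741 CPM in WT libraries at 18 months. It was 1.34-fold higher in KO at 6 months and 1.27-fold lower at 18 months. Both Sema6a calls and both Sema6d calls held in all 15 alternatives. Sema6c had 13.9 and 15.5 CPM in KO libraries, against 18.4 and 19.0 CPM in WT libraries at 6 months, and 6.87 and 6.56 CPM in KO libraries, against 8.78 and 8.93 CPM in WT libraries at 18 months. Its groups did not overlap, but it was not called at either age (adjusted p = 0.072 at 6 months and 0.0732 at 18 months). Sema7a, held to the membrane by a lipid anchor, had 89.8 and 93.0 CPM in KO libraries, against 75.4 and 71.3 CPM in WT libraries at 6 months, and 75.7 and 87.3 CPM in KO libraries, against 107 and 99.1 CPM in WT libraries at 18 months. It was 1.25-fold higher in KO at 6 months (adjusted p = 0.00382) and 1.26-fold lower at 18 months (adjusted p = 0.00121), and the 18-month call was lost with library totals and without KO 18-month library 1.

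**Figure D4:**
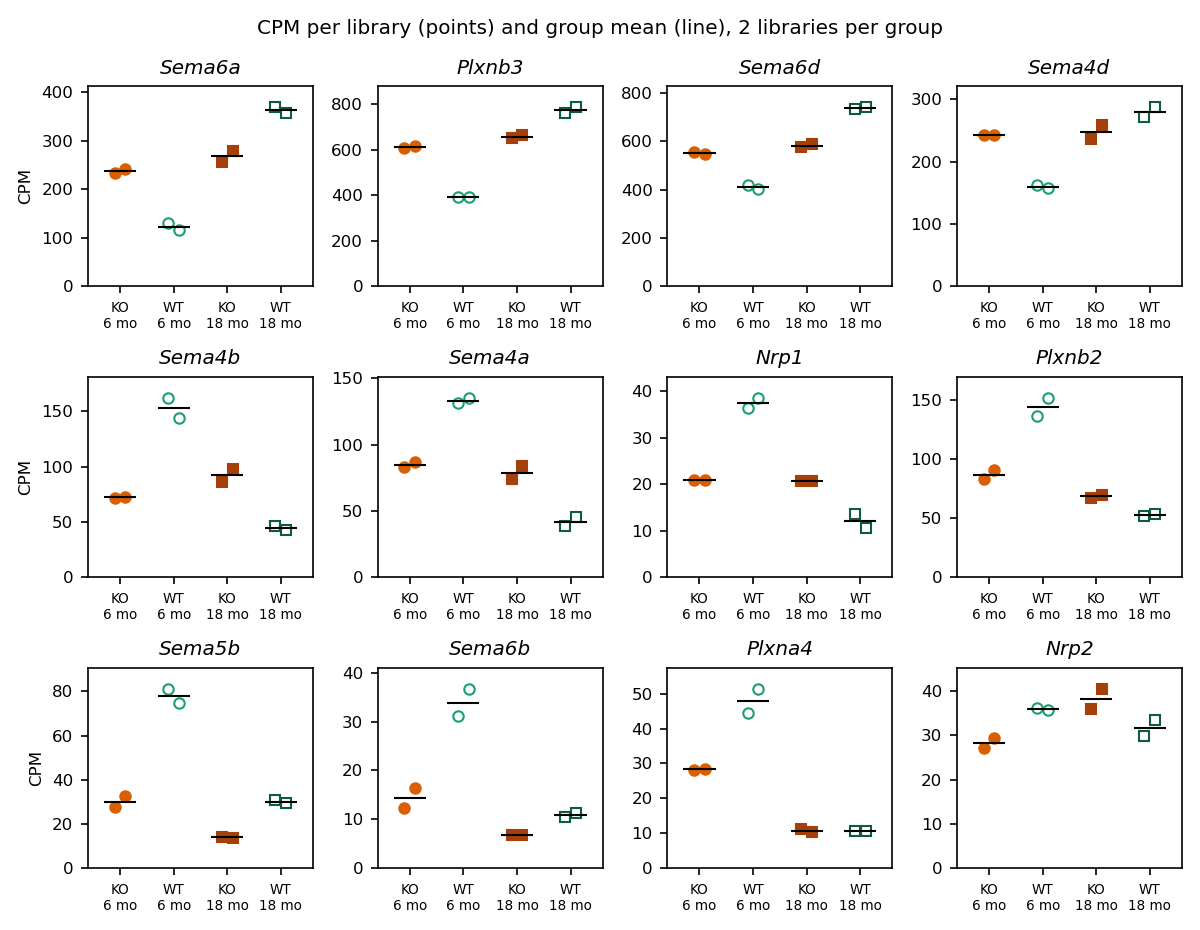
CPM of 12 genes in each library (points) with the group mean (line), KO left of WT at each age. The top row shows genes higher in KO at 6 months and lower at 18 months, and the middle row the opposite; Sema5b and Sema6b in the bottom row are lower in KO at both ages.

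The plexin-A receptors, the signalling partners of neuropilins, were all lower in KO at 6 months. Plxna1, a receptor for Sema6D, had 56.2 and 56.8 CPM in KO libraries, against 84.3 and 85.9 CPM in WT libraries, a 1.51-fold difference. Plxna2, a receptor for Sema6A, had 48.1 and 48.4 CPM in KO libraries, against 70.0 and 63.7 CPM in WT libraries, a 1.39-fold difference. Plxna3, a partner of Nrp2 in the Sema3F receptor, had 41.9 and 41.7 CPM in KO libraries, against 70.9 and 78.6 CPM in WT libraries, a 1.79-fold difference. Plxna4, which binds class 6 ligands and joins Nrp1 in the Sema3A receptor, had 28.2 and 28.5 CPM in KO libraries, against 44.4 and 51.2 CPM in WT libraries, a 1.69-fold difference. At 18 months Plxna1, with 47.4 and 48.5 CPM in KO libraries, against 37.9 and 35.4 CPM in WT libraries, was 1.31-fold higher in KO. Plxna2, with 36.1 and 39.5 CPM in KO libraries, against 24.8 and 27.5 CPM in WT libraries, was 1.43-fold higher. Plxna3 was not called at that age, with 39.0 and 38.8 CPM in KO libraries, against 34.9 and 35.0 CPM in WT libraries. The Plxna4 groups overlapped, with 11.3 and 10.3 CPM in KO libraries, against 10.7 and 10.8 CPM in WT libraries. The antisense gene Gm26811 covers 10.7% of the exon bases of Plxna1 and had 258 reads, against 3953 for Plxna1, so that part of the Plxna1 count is uncertain.

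The plexin-B receptors split by member. Plxnb1, which recruits RhoA exchange factors when Sema4D binds, had 416 and 451 CPM in KO libraries, against 539.9 and 554 CPM in WT libraries at 6 months, and 421 and 429 CPM in KO libraries, against 335 and 336 CPM in WT libraries at 18 months. It was 1.26-fold lower in KO at 6 months (adjusted p = 2.74e-05) and 1.27-fold higher at 18 months (adjusted p = 3.04e-05). Plxnb2, a receptor for Sema4C, moved in the same directions: it had 83.1 and 90.3 CPM in KO libraries, against 136 and 151 CPM in WT libraries at 6 months, 1.66-fold lower, and 67.3 and 69.9 CPM in KO libraries, against 51.7 and 53.9 CPM in WT libraries at 18 months, 1.3-fold higher. Plxnb3 had 608 and 619 CPM in KO libraries, against 392 and 394 CPM in WT libraries at 6 months. It was 1.56-fold higher in KO (log2 0.64 ± 0.052 SE, adjusted p = 4.52e-10). At 18 months it had 652 and 665 CPM in KO libraries, against 762 and 787 CPM in WT libraries and was 1.18-fold lower (adjusted p = 0.000785), a call lost with library totals alone. Plxnc1, the receptor for Sema7a, had 18.2 and 22.7 CPM in KO libraries, against 35.1 and 31.7 CPM in WT libraries at 6 months, and 17.3 and 17.0 CPM in KO libraries, against 14.9 and 12.01 CPM in WT libraries at 18 months. It was lower in KO at 6 months, opposite to its ligand, and its higher level at 18 months was called by a narrow margin (adjusted p = 0.0484) and was lost in 4 of 15 alternatives.

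Nrp1, the co-receptor for Sema3A and for VEGF-A, had 20.96 and 21.01 CPM in KO libraries, against 36.5 and 38.5 CPM in WT libraries at 6 months, and 20.8 and 20.7 CPM in KO libraries, against 13.7 and 10.6 CPM in WT libraries at 18 months. It was 1.79-fold lower in KO at 6 months (adjusted p = 9.25e-06) and 1.75-fold higher at 18 months (adjusted p = 4.65e-05). The KO values at both ages lay between those of the WT groups. Nrp2, the co-receptor for Sema3F, had 27.1 and 29.3 CPM in KO libraries, against 36.1 and 35.7 CPM in WT libraries at 6 months, 1.27-fold lower in KO, a call lost in 6 of 15 alternatives. At 18 months it had 35.9 and 40.3 CPM in KO libraries, against 29.7 and 33.3 CPM in WT libraries, and the difference was not called (adjusted p = 0.051).

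The genotype difference itself changed with age for most of the family. The interaction, which subtracts the KO-to-WT log2 difference at 6 months from the one at 18 months, was positive for 15 genes, negative for 7 and not called for 9. Over all genes tested, 18.4% were positive and 20.7% negative. By family, 7 of 9 plexins and both neuropilins had a positive interaction and Plxnb3 a negative one, while semaphorins were even at 6 and 6 of 20. The largest were 2.13 ± 0.12 SE for Sema4b, -1.80 ± 0.38 SE for Sema3b and 1.64 ± 0.18 SE for Nrp1. The genotype contrasts at the 2 ages share no library. All 18 genes called at 18 months were also called at 6 months. Of these, 15 had opposite directions: Nrp1, Plxna1, Plxna2, Plxnb1, Plxnb2, Plxnc1, Sema4a and Sema4b were lower in KO at 6 months and higher at 18 months, and Plxnb3, Sema3b, Sema4c, Sema4d, Sema6a, Sema6d and Sema7a were the other way round. Sema3e, Sema5b and Sema6b were lower at both ages. The 15 genes were 83.3% of the 18-month calls and 57.7% of the 26 calls at 6 months. Over all genes tested, 3390 of the 5844 called at 18 months were also called at 6 months. Of these 3390 genes, 498 were lower in KO at both ages and 2599 had opposite calls. The opposite calls were 44.5% of the 5844 calls at 18 months and 36.8% of the 7067 calls at 6 months. The family's 83.3% rests only on genes called at both ages, while the 44.5% also counts genes called at 18 months alone. Among genes called at both ages, opposite calls were 15 of 18 in the family and 2599 of 3390 over all genes tested.

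**Figure D5:**
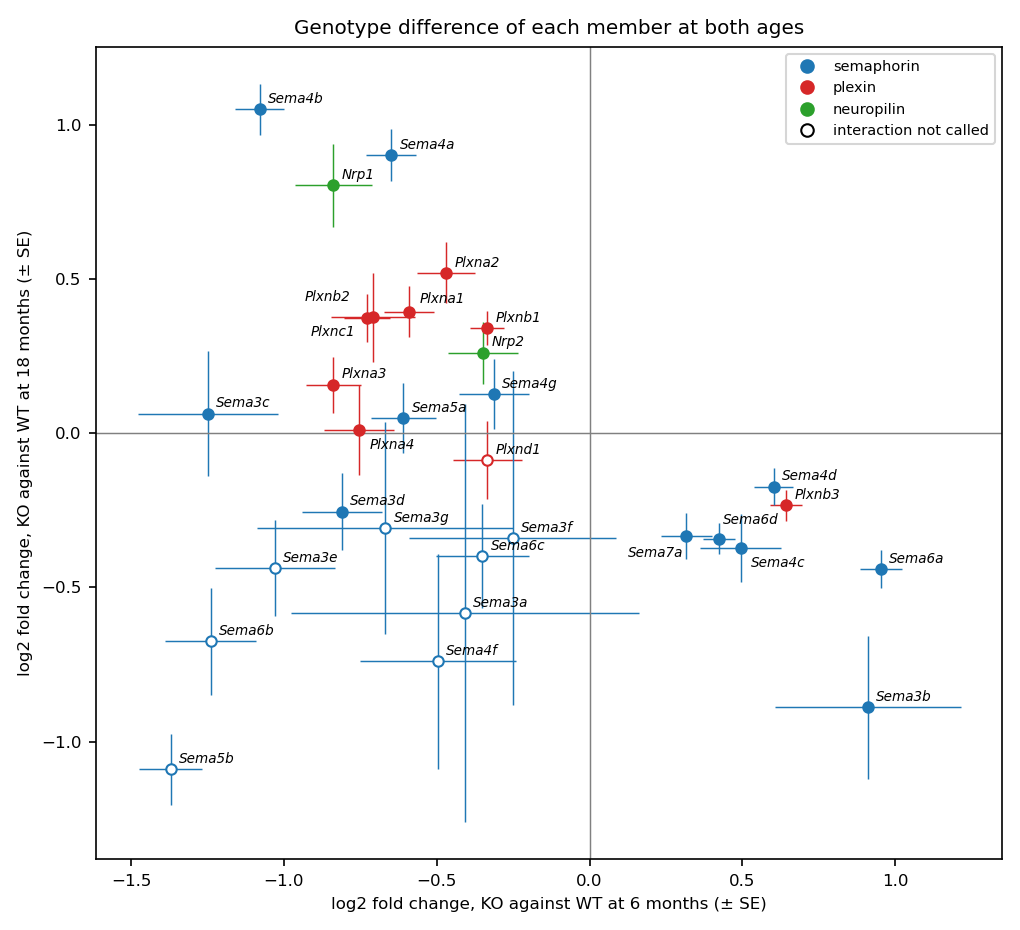
KO-to-WT log2 fold change at 6 months (x axis) and at 18 months (y axis) for the 31 genes, with bars of 1 SE; filled points have a called interaction, and colours mark semaphorins, plexins and neuropilins. Most plexins lie at upper left and Sema6a, Plxnb3 and Sema4d at lower right, with Sema5b at lower left.

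More of the family was called between ages in WT than in KO cells, and the WT contrast rests on the 6-month libraries that stood apart. In WT, 20 genes were lower at 18 months than at 6 months, 7 were higher and 4 were not called, with a median log2 fold change of -1.10. Over all genes tested, 30.8% were lower and 28.2% higher. In KO, 12 were lower, 5 higher and 14 not called, with a median of -0.17. Over all genes tested in KO, 17.9% were lower and 13.8% higher. The 5 higher genes in KO came to 3 without KO 6-month library 1, without KO 6-month library 2 or without KO 18-month library 2, and the split was 7 higher and 10 lower with library totals. The difference in the age effect between genotypes is the interaction given above.

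In WT cells the 7 genes higher at 18 months were Plxnb3, Sema3b, Sema4c, Sema4d, Sema6a, Sema6d and Sema7a. Sema6a averaged 364 CPM at 18 months and 123 CPM at 6 months, a 2.97-fold rise (log2 1.57 ± 0.067 SE, adjusted p = 1.04e-15). In KO the same gene averaged 268 CPM at 18 months and 238 CPM at 6 months, a 1.13-fold rise that was lost in 3 of 15 alternatives. Plxnb3 rose 1.97-fold in WT, with 774 CPM at 18 months and 393 CPM at 6 months, and was not called in KO (658 CPM at 18 months and 614 CPM at 6 months, adjusted p = 0.134). Sema4b showed opposite directions: in WT it averaged 44.5 CPM at 18 months and 153 CPM at 6 months, a 3.45-fold fall. In KO it averaged 92.0 CPM at 18 months and 72.4 CPM at 6 months, a 1.27-fold rise (adjusted p = 0.00167). Nrp1 fell 3.15-fold with age in WT and was level in KO, at 20.8 CPM at 18 months and 20.98 CPM at 6 months (log2 fold change -0.015 ± 0.13 SE). Nrp2 rose 1.35-fold in KO (adjusted p = 0.00279) and was not called in WT.

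Some genes fell with age in both genotypes. Sema3f averaged 0.559 CPM at 18 months and 3.15 CPM at 6 months in KO, a 5.47-fold fall (adjusted p = 7.56e-05). In WT it averaged 0.747 CPM at 18 months and 3.76 CPM at 6 months, a 5.15-fold fall. Sema4f fell 4.05-fold in KO and 3.42-fold in WT, Sema6c 2.18-fold and 2.11-fold, and Plxnd1 2.11-fold and 2.51-fold. For these 4 genes the interaction was not called. Plxna4 fell 2.62-fold in KO and 4.45-fold in WT, to 10.8 CPM in KO and 10.7 CPM in WT at 18 months. Sema5b fell 2.14-fold in KO and 2.59-fold in WT, and Sema6b 2.08-fold and 3.09-fold. Sema3c and Sema3e rose with age in KO, by 1.5-fold and 1.67-fold. Sema3c was called lower with age in WT and Sema3e was not called there. The Sema3c calls were lost in 4 of 15 alternatives in KO and in 3 in WT. The pan-neuronal, excitatory neuron, precursor, fibroblast, endothelial, and pericyte and smooth muscle marker sums given above were also lower at 18 months in both genotypes. The part of these cell types was not tested.

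The co-receptors and partner proteins that semaphorins share with other ligands were mixed. Of 19 tested genes of this list, 5 were higher and 6 lower in KO at 6 months, and 6 higher and 7 lower at 18 months, with medians of 0.005 and -0.004. The shares over all genes tested were 19.2% higher and 19.6% lower at 6 months, and 14.7% higher and 17.4% lower at 18 months. Nrcam, an adhesion molecule that joins Nrp2 in the Sema3F receptor, averaged 202 CPM in KO and 392 CPM in WT at 6 months, a 1.94-fold fall. At 18 months Nrcam averaged 245 CPM in KO and 129.8 CPM in WT, a 1.89-fold rise (adjusted p = 1.56e-11). Chl1, a partner of Nrp1, was 2.5-fold lower in KO at 6 months, at 34.5 CPM in KO and 86.3 CPM in WT. Cntn2, an adhesion molecule of axons and myelin, was 2.14-fold higher in KO at 6 months, at 1744 CPM in KO and 815 CPM in WT. It was 1.18-fold lower in KO at 18 months. Itga1, an integrin chain that pairs with Itgb1 as a Sema7a receptor, was 2.01-fold higher in KO at 18 months, at 96.5 CPM in KO and 48.0 CPM in WT. Lrig1, a restrainer of growth factor receptors, was 1.71-fold higher in KO at 18 months and 1.74-fold lower in KO at 6 months. With age, 10 of the 19 were lower in KO and 11 in WT, against 1 and 3 higher. Among all genes, 17.9% were lower in KO and 30.8% in WT, against 13.8% and 28.2% higher. Trem2, a microglial receptor that joins Plxna1 in the response to Sema6D, averaged 1.25 CPM in KO and 4.18 CPM in WT at 18 months (adjusted p = 0.000106). The microglial marker sum, which includes Trem2 itself, was also lower in KO at that age. Nrcam and Lrig1 fell 3.02-fold and 2.96-fold in WT, and Hspg2, Ptk7 and L1cam fell in KO by 1.62-fold, 1.95-fold and 2.11-fold.

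Genes acting inside the cell below plexins moved in both directions. Of 45 tested, 12 were higher and 19 lower in KO at 6 months, where 19.2% and 19.6% of all genes were called. At 18 months 7 were higher and 19 lower, where 14.7% and 17.4% of all genes were called. The medians were -0.091 and -0.12. Tiam1, an exchange factor that activates Rac1, averaged 25.8 CPM in KO and 127 CPM in WT at 6 months, a 4.91-fold fall (adjusted p = 1.46e-14). Dpysl2, a microtubule-binding mediator of Sema3A signals, averaged 1030.0 CPM in KO and 539 CPM in WT at that age, a 1.91-fold rise, and Pak1, a kinase activated by Rac1, rose 1.69-fold. Dpysl2 and Pak1 were lower in KO at 18 months, by 1.3-fold and 1.36-fold. At 18 months Mical2, an enzyme that takes actin filaments apart by oxidation, averaged 215 CPM in KO and 96.3 CPM in WT, a 2.23-fold rise (adjusted p = 1.24e-12). Enah, which lengthens actin filaments, and Mras, a small GTPase, were 1.87-fold and 1.93-fold higher. At 6 months Mical2, Enah and Mras were lower in KO, by 1.56-fold, 1.24-fold and 1.77-fold. With age 20 of the 45 were lower in KO and 25 in WT, against 4 and 13 higher, where the shares over all genes were 17.9% and 30.8% lower and 13.8% and 28.2% higher. Tiam1 fell 3.67-fold with age in KO and 13.6-fold in WT. In KO, Pip5k1c fell 1.82-fold and Mical3 1.47-fold.

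The VEGF ligands that share neuropilins with class 3 semaphorins were led by Vegfa. Vegfa averaged 506 CPM in KO and 935 CPM in WT at 6 months, a 1.85-fold fall (log2 -0.89 ± 0.054 SE, adjusted p = 4.17e-12). At 18 months it averaged 449 CPM in KO and 372 CPM in WT, a 1.21-fold rise (adjusted p = 0.000415). These directions are those of Nrp1 at both ages, and of 1161 of the 3390 genes called at both ages over all genes tested. A link between Vegfa and Nrp1 was not tested. The other 4 genes of this list, Vegfb, Vegfc, Vegfd and Pgf, were not called between genotypes. Over all genes tested, 19.6% were lower in KO at 6 months and 14.7% higher in KO at 18 months. With age Vegfa and Vegfc fell in KO, and Vegfa, Vegfb, Vegfc and Pgf fell in WT. The shares of all genes lower with age were 17.9% in KO and 30.8% in WT. Vegfc and Pgf had few reads, 78 and 156 over all libraries.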

How the data were processed

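Gene-level raw counts were deposited, 1 table for each of the 8 libraries. The authors made these counts with featureCounts 1.5.0-p1 after STAR 2.5.2a and CASAVA 1.8.2 on mm10, per the submitters' processing notes. The gene annotation, the strandedness and the handling of multi-mapping reads are not stated there. Gene symbols and exon lengths were read from GENCODE M21 (mm10) and covered 55480 of 55573 IDs. The remaining IDs took at most 0.0019% of any library's counts.

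Tests used edgeR 4.0.16 (R 4.3.3): filterByExpr with a minimum count of 10 (18205 genes kept), TMM scaling, and a quasi-likelihood fit and F test (glmQLFit, glmQLFTest) of the 4 group means over all 8 libraries, with 4 residual degrees of freedom and Benjamini-Hochberg adjustment over all genes tested. The estimate of each gene's spread also borrowed from the other genes, with a median of 19.1 prior degrees of freedom. An adjusted p under 0.05 is a call, and directions are given for called differences. Each SE was worked back from the test, as the absolute log2 fold change divided by the square root of the F statistic. CPM are counts scaled by the TMM-corrected totals to the usual common depth, and RPKM are CPM per kilobase of exon. Library totals limit precision most for genes with few reads. Libraries of 1 group differed by more than sampling noise (chi-square per gene 2.72 to 5.37), so none was merged. The fit was tested on simulated counts.

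All family members could be named, and of each pathway list the 3 genes with the smallest p in a comparison, plus receptors of named members. Members, lists and markers were chosen with earlier results of these data known. The 15 alternatives were DESeq2 1.42.0, upper-quartile scaling, library totals, no low-count filter, a likelihood ratio test, a replicate block, the compared groups alone, and each library left out in turn. Promoter windows came from RefSeq (GRCm38.p6). The paired DNA samples were not used here.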

Additional observations from a re-analysis of the deposited data

Results flagged for a closer look

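The genotype difference of 22 of the 31 genes differed between the ages by the interaction test (edgeR, adjusted over all genes tested). Each value subtracts the KO-to-WT log2 difference at 6 months from the one at 18 months. Among receptors they were 1.10 for Plxnb2, 1.08 for Plxnc1, 1.00 for Plxna3, 0.99 for Plxna2, 0.98 for Plxna1, 0.76 for Plxna4 and 0.68 for Plxnb1, and among co-receptors 1.64 for Nrp1 and 0.61 for Nrp2. Among semaphorins with a positive value they were 2.13 for Sema4b, 1.55 for Sema4a, 1.31 for Sema3c, 0.66 for Sema5a, 0.56 for Sema3d and 0.44 for Sema4g. Negative values were -1.80 for Sema3b, -1.39 for Sema6a, -0.88 for Plxnb3, -0.87 for Sema4c, -0.78 for Sema4d, -0.77 for Sema6d and -0.65 for Sema7a. Each of these contrasts uses the WT 6-month libraries, which correlated less with the other libraries. The adjusted p ranged from 2.58e-13 for Sema4b to 0.0323 for Sema4g, and the calls for Sema3d and Sema4g were lost under some alternatives, with adjusted p up to 0.149 and 0.181. The oligodendrocyte, astrocyte, microglial, endothelial, GABA neuron and excitatory neuron marker sums also turned round with age between the genotypes. On the GABA and excitatory lists more single markers were lower than higher in KO at 18 months, against their sums. The part of these cell types was not tested.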

How the results depend on the processing

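No called difference reversed under the 15 alternatives (14 for the interaction, which needs all groups). Among differences that were not called the sign could change: Sema3a for KO against WT at 6 months was -0.41 on the log2 scale and 0.27 without WT 6-month library 1. Of 110 called differences of family members over the 5 contrasts, 88 were called under every alternative that gave a value and 22 were lost under at least 1, namely 4 of 26 for KO against WT at 6 months, 8 of 18 for KO against WT at 18 months, 7 of 17 for age in KO, 1 of 27 for age in WT and 2 of 22 for the interaction. Single genes gave the same call in 2172 comparisons of an alternative with the reported value, a weaker one in 93 and a stronger one in 24. For KO against WT at 18 months, the 10 lower genes came to 5 with library totals only and to 6 to 10 when 1 library was left out. For age in KO, the 5 higher genes came to 3 to 5 when 1 library was left out. With library totals the median log2 value of all genes was 0.141 for KO against WT at 18 months (0 with TMM), -0.139 for age in WT (-0.0403 with TMM) and 0.208 for the interaction (0.0146 with TMM). The cause was not tested. Replicate numbers did not pair the libraries (correlations of same-numbered deviations -0.0019 to 0.068), and every library's number is only a label. With the replicate block the counts were 7 higher and 19 lower at 6 months, 9 and 10 at 18 months, 5 and 12 for age in KO, 7 and 20 for age in WT, and 16 positive and 7 negative for the interaction. Leaving out a library leaves its group with 1, which is then assumed to vary like the other groups. Genes under 1 RPKM are limited by depth.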

Other observations

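Other axon guidance families were measured beside the semaphorins. Of 48 tested genes of the netrin, Slit, ephrin, repulsive guidance and Nogo systems, 11 were higher and 22 lower in KO at 6 months, and 8 were higher and 11 lower at 18 months. Among all genes, 19.2% were higher and 19.6% lower at 6 months, and 14.7% higher and 17.4% lower at 18 months. The median log2 fold changes were -0.25 and -0.024. Efnb3, a membrane-bound ephrin, averaged 660.1 CPM in KO and 265 CPM in WT at 6 months, a 2.49-fold rise, and 539 CPM in KO and 814 CPM in WT at 18 months, a 1.51-fold fall. Unc5b, a netrin receptor, averaged 553 CPM in KO and 237 CPM in WT at 6 months, and was 1.39-fold lower in KO at 18 months. Rtn4, which encodes Nogo, averaged 1017 CPM in KO and 1690.0 CPM in WT at 18 months, a 1.66-fold fall. At 6 months Rtn4 averaged 1059 CPM in KO and 483 CPM in WT, a 2.19-fold rise. Dscam, a large adhesion receptor, was lower in KO at both ages: 67.4 CPM in KO and 179 CPM in WT at 6 months, and 39.0 CPM in KO and 78.8 CPM in WT at 18 months. With age, 25 of the 48 were lower and 6 higher in KO, and 30 were lower and 12 higher in WT, where the shares over all genes were 17.9% lower and 13.8% higher in KO, and 30.8% lower and 28.2% higher in WT. Slit1, a secreted repellent, fell 6.22-fold with age in KO, and Ntn4 fell 2.3-fold. Mag, a gene of this list, is also among the oligodendrocyte markers.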
